A study of Mus musculus with 15 samples.

Results

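Metallothioneins and zinc transporters were followed in cultured primary mouse hepatocytes. The set holds 9 genes, taken by symbol from the 38087 rows of the deposited exon count table: Mt1, Mt2, Slc30a1, Slc30a3, Slc30a10, Slc39a4, Slc39a8, Slc39a14 and Mtf1. The cells were cryopreserved hepatocytes of CD-1 mice, plated on collagen with a Geltrex overlay, and each sex of donor was its own stock, so that donor sex and donor stock cannot be told apart. They received medium with 25% mouse serum for 24 h and then growth hormone at 8 ng per ml, or PBS as vehicle, for 2 h. All groups shared 0.1 µM dexamethasone, insulin, transferrin, selenous acid and albumin in the medium.

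The 13 libraries formed 5 groups. Male hepatocytes in serum of conventionally raised male mice (m_pHep_m_ConvR) and female hepatocytes in the same serum (f_pHep_m_ConvR) had 3 libraries each. Female hepatocytes in serum of conventionally raised females (f_pHep_f_ConvR) and in serum of germ-free females (f_pHep_f_GF_serum) had 2 each, both groups represented by replicates 2 and 3. Female hepatocytes in germ-free serum with growth hormone (f_pHep_f_GF_serum_GH) had 3. The labels give no donor age and no zinc content of the sera. They do not say whether replicates were separate cultures or serum pools, so that p-values measure only the spread between these samples, which may be technical.

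Metallothioneins are small cysteine-rich proteins that bind zinc, copper and cadmium and are among the most strongly inducible proteins of liver. Zinc leaves the cytosol through SLC30A (ZnT) carriers and enters it through SLC39A (ZIP) carriers. MTF1 is the zinc-sensing transcription factor that binds metal response elements in the promoters of the metallothionein genes and of Slc30a1. Metallothionein genes and Slc39a14 are also known to be induced in liver by interleukin 6, and metallothionein genes by glucocorticoids.

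Library totals ran from 34097400 to 48742274 counts. Markers of hepatocytes were abundant in every library, with a summed level of 14840 to 34000 CPM (counts relative to the library total, as scaled for composition) over 9 of 10 markers. The Kupffer cell and macrophage list (7 of 8 markers matched, none at 0) summed to 78.5 to 167 CPM. The list of sinusoidal endothelium (7 of 7) summed to 12.4 to 50.2 CPM, and both sums were highest in male cells. Cd68 alone ran from 70.9 to 161 CPM, whereas no other matched marker of the Kupffer cell list exceeded 3.53 CPM. Xist, the RNA of the inactive X chromosome, stood apart in female cells in f_pHep_f_ConvR replicate 2 (481 CPM) and f_pHep_f_GF_serum_GH replicate 1 (685 CPM) against 268 to 395 CPM in the other female libraries. Calls on the 9 genes that rest on these libraries are given with and without them. In bulk RNA, fewer cells of a type and less RNA per cell cannot be told apart.

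All 9 genes had enough counts to be tested, and edgeR's quasi-likelihood test with Benjamini-Hochberg adjustment over 17405 genes was read at an adjusted p of 0.05. Slc30a3 moved in 4 of the 5 comparisons, and the metallothioneins in 2. In germ-free against conventional female serum, 1 of the 9 genes was called, the rise of Slc30a3, beside 6.41% of all genes tested (2.86% higher and 3.54% lower). In conventional male against conventional female serum 4 were called, a rise of Slc30a3 and falls of Mt1, Mt2 and Slc30a1, beside 8.8% of all genes (3.95% higher and 4.85% lower). Between male and female cells in the same serum 5 were called, with Mt1, Mt2 and Slc30a3 higher and Slc39a14 and Mtf1 lower in male cells. There the share among all genes was 36.7% (17.6% higher and 19% lower).

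Growth hormone was followed by 1 call, a fall of Slc30a3, beside 0.586% of all genes (0.511% higher and 0.0747% lower). Germ-free female serum against conventional male serum gave 0 calls among the 9 with edgeR (2 at an unadjusted p under 0.05) and 0 with DESeq2, beside 0.448% of all genes (0.184% higher and 0.264% lower). The median log2 change of the 9 genes was -0.15 in germ-free serum, -0.25 in male serum, 0.06 between the sexes of the cells and 0.05 with growth hormone. The medians of all genes tested were 0.00, 0.00, -0.02 and 0.00. The comparisons of germ-free and of male serum share the conventional female libraries, so that their changes are set side by side here and not counted as separate evidence. The plot of the changes shows these calls.

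Sums over marker lists of other cell types also moved between the sera and with growth hormone in female cells. Kupffer cell and macrophage markers summed to 104 to 113 CPM in conventional female serum, 125 to 134 in germ-free serum, 78.5 to 97.9 in conventional male serum and 88.0 to 106 with growth hormone. Stellate cell and fibroblast markers (7 of 7, none at 0) summed to 20.1 to 27.0, 29.3 to 31.3, 15.4 to 20.9 and 17.4 to 24.1 CPM in the same order. Both sums were thus highest in germ-free serum, whereas endothelial markers stayed between 12.4 and 18.8 CPM and hepatocyte markers between 14840 and 18360 CPM. The Kupffer cell sum was mostly Cd68. The stellate cell sum was mostly Dcn (9.89 to 24.2 CPM over the 13 libraries) and Reln (2.77 to 10.05 CPM). Sums that rest on so few genes need not follow the share of a cell type. The part of the shifts in these sums in the changes of Mt1, Mt2, Slc30a1 and Slc30a3 was not tested.

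**Figure D1:**
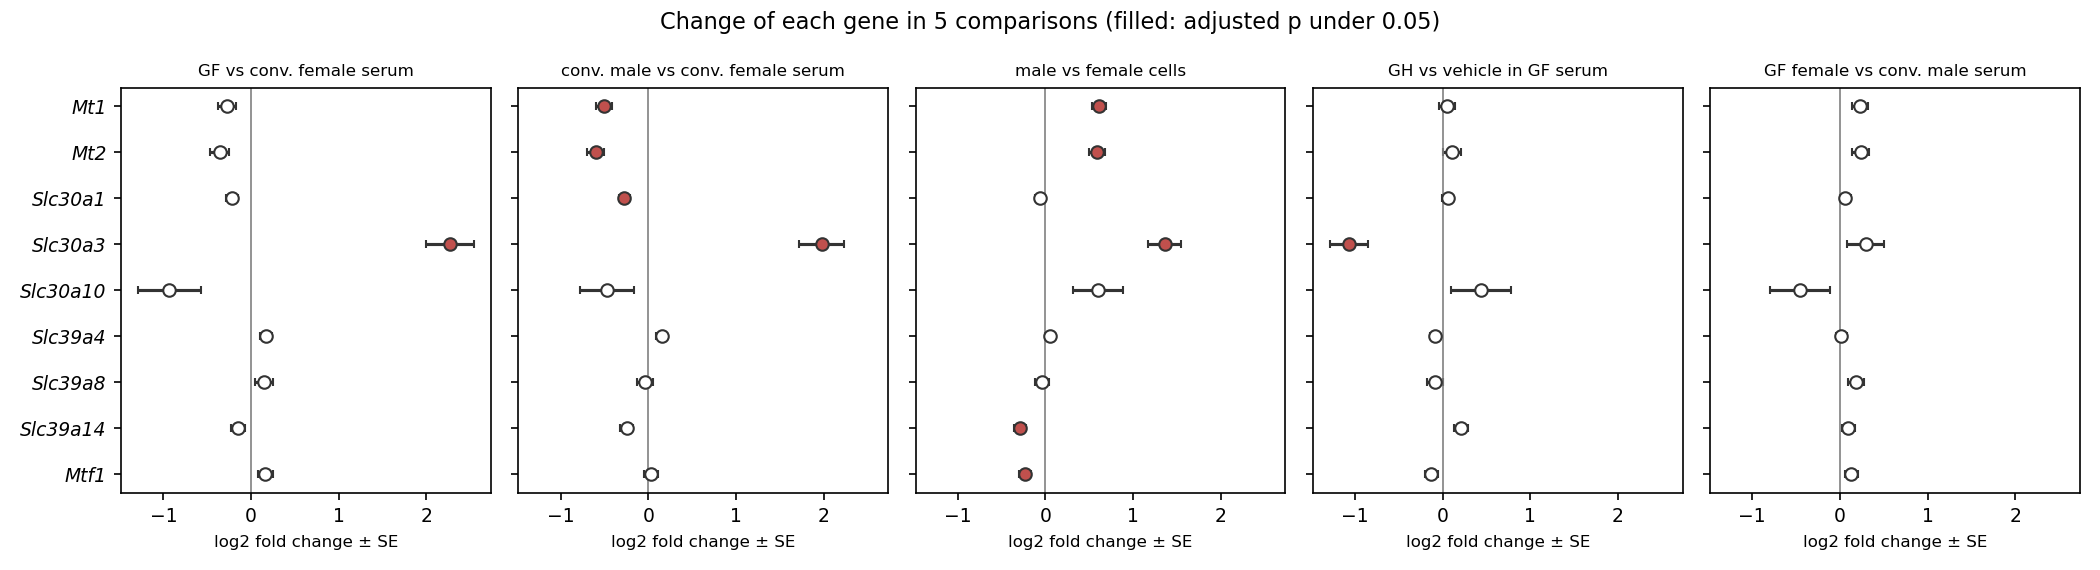
Log2 fold change (x axis, ± SE) of the 9 genes (y axis) in 5 comparisons, 1 panel each; filled points passed an adjusted p of 0.05. Slc30a3 lies farthest from 0 in the first 4 panels, at 2.27, 1.98, 1.36 and -1.07, and Mt1 and Mt2 lie together in each panel.

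Mt1 and Mt2, the pair of metallothioneins that liver makes, lie in tandem on chromosome 8 (mm10), Mt2 at 94172664 to 94173568 and Mt1 at 94179082 to 94180327, 5513 bases apart on the same strand. Their spliced transcripts share no identical run longer than 20 bases, against reads of 100 bases. Mt2 shares 432 of its 588 exon bases with an antisense model, Gm45774, that has no row in the count table. The strand setting of the counting is not given, so that reads there cannot be assigned to Mt2 with certainty. In female cells, Mt1 had 808 and 901 CPM in conventional female serum and 680 and 732 CPM in germ-free serum. It had 641, 621 and 548 CPM in conventional male serum. With growth hormone in germ-free serum its levels were 748, 657 and 791 CPM. Male cells in conventional male serum held 1013, 899 and 854 CPM, all above each female library in that serum.

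Among female cells, Mt1 was therefore highest in conventional female serum and lowest in conventional male serum, without overlap between these groups. The fall in male serum was 0.502 ± 0.092 (SE) on the log2 scale, from 855 ± 65.4 CPM (SD, n = 2) to 603 ± 48.6 CPM (SD, n = 3), with an adjusted p of 0.00315 (edgeR). Without both libraries rich in Xist it was -0.58 (adjusted p = 0.00674, edgeR). In germ-free serum Mt1 changed by -0.28 ± 0.10, a difference that did not pass (adjusted p = 0.127, edgeR). Male cells held 922 ± 82.0 CPM (SD, n = 3), a log2 difference of 0.61 ± 0.08 from female cells in the same serum (adjusted p = 2.8e-05, edgeR). Growth hormone left Mt1 at 0.05 ± 0.09 from its vehicle, with overlapping libraries.

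Mt2 followed the same order within female cells. Its levels were 515 and 520 CPM in conventional female serum and 379 and 429 CPM in germ-free serum. In conventional male serum it had 375, 340 and 311 CPM. With growth hormone it had 457, 377 and 471 CPM, which spans the germ-free values, and male cells held 555, 487 and 502 CPM. The fall of Mt2 in male serum was 0.596 ± 0.097 on the log2 scale (adjusted p = 0.00119, edgeR) and -0.61 without both libraries rich in Xist (adjusted p = 0.00788, edgeR).

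Germ-free serum gave Mt2 a change of -0.36 ± 0.11, which missed the threshold (adjusted p = 0.0592, edgeR). It also missed it with RLE size factors, another scaling (adjusted p = 0.0658, edgeR). It passed with DESeq2 (adjusted p = 0.0242), without the low-count filter (adjusted p = 0.000365, edgeR) and with library sizes alone (adjusted p = 0.0429, edgeR). Leaving out both libraries rich in Xist leaves a single library in conventional female serum. Mt2 was then 0.365 higher there than in germ-free serum on the log2 scale. In germ-free serum Mt1 passed without the low-count filter (adjusted p = 0.00896, edgeR). It missed the threshold with RLE size factors (adjusted p = 0.137, edgeR) and with library sizes alone (adjusted p = 0.117, edgeR). In male cells Mt2 was higher by 0.59 ± 0.09 (adjusted p = 6.6e-05, edgeR). The ratio of Mt1 to Mt2 counts stayed between 1.57 and 1.85 in all 13 libraries, with its lowest value in f_pHep_f_ConvR replicate 2 and its highest in a male library. Mt1 and Mt2 together took 0.0863% to 0.15% of a library's counts.

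The order of mean Mt1 levels was male cells, conventional female serum, germ-free serum with growth hormone, germ-free serum, and female cells in conventional male serum. No pair of neighbours in that order differed in edgeR's test (adjusted p from 0.259 to 0.853). For Mt2, conventional female serum (517 ± 3.62 CPM, SD, n = 2) and male cells (514 ± 35.7 CPM, SD, n = 3) stood together at the top. Male cells then differed from germ-free serum with growth hormone (adjusted p = 0.0425, edgeR; 0.0422 without both libraries rich in Xist), and no other pair of neighbours passed the test.

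**Figure D2:**
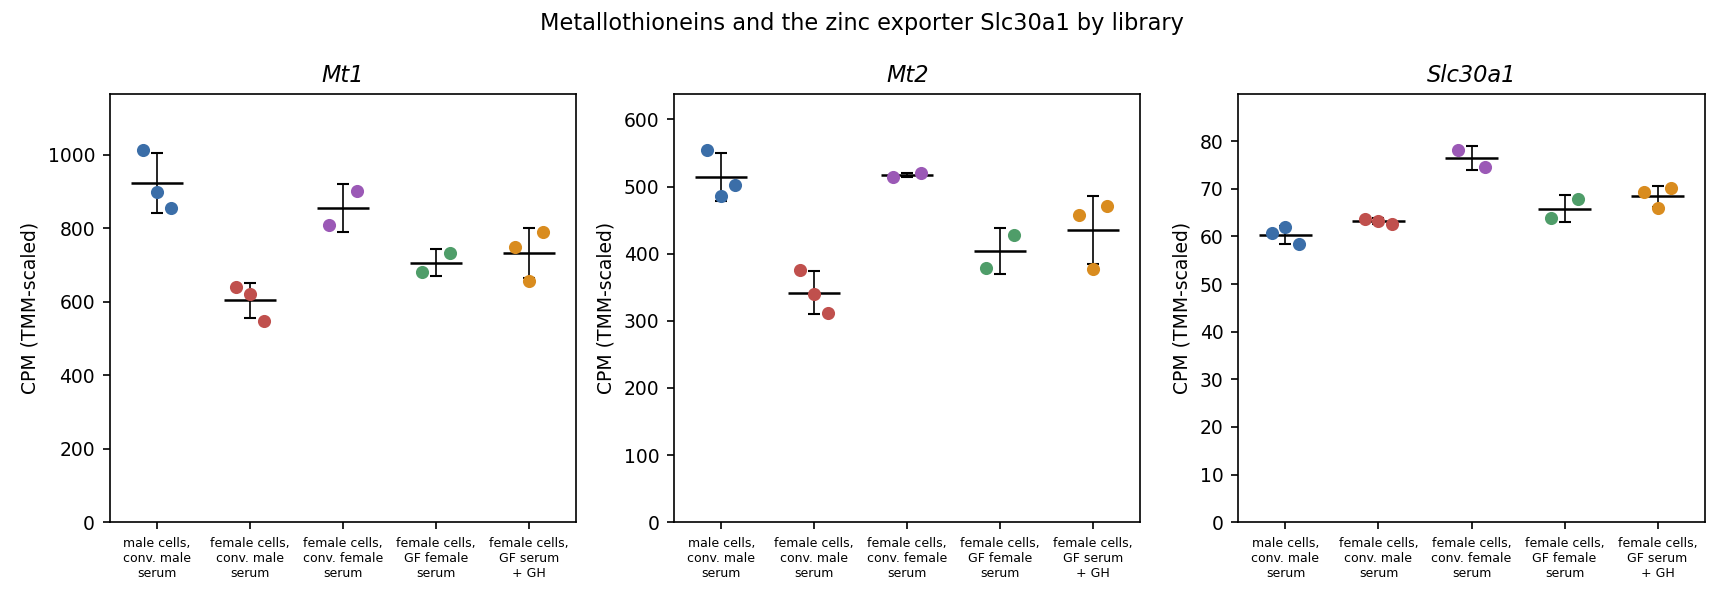
CPM with TMM-scaled library sizes (y axis, from 0) of Mt1, Mt2 and Slc30a1 in the 5 groups (x axis); points are libraries, bars the mean and SD. Both metallothioneins run from 548 to 1013 CPM (Mt1) and 311 to 555 CPM (Mt2), high in male cells and in conventional female serum, whereas Slc30a1 is highest in conventional female serum alone.

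Slc30a1 encodes ZnT1, the zinc exporter of the plasma membrane and, with the metallothionein genes, a classic MTF1 target (chromosome 1, 191906767 to 191913247). It had 78.2 and 74.6 CPM in conventional female serum and 63.9 and 67.8 CPM in germ-free serum. In conventional male serum it had 63.7, 63.3 and 62.5 CPM, and with growth hormone 69.2, 66.0 and 70.1 CPM. Male cells held 60.8, 61.9 and 58.3 CPM. Both libraries in conventional female serum thus lay above all 11 others.

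The fall of Slc30a1 in male serum was 0.274 ± 0.061 on the log2 scale (adjusted p = 0.0112, edgeR). It lost its call without f_pHep_f_ConvR replicate 2 (-0.24, adjusted p = 0.105, edgeR), without both libraries rich in Xist (adjusted p = 0.0949) and in a fit of only these groups (adjusted p = 0.119). In germ-free serum Slc30a1 changed by -0.21 ± 0.07, which did not pass (adjusted p = 0.0729, edgeR) and passed with DESeq2 (adjusted p = 0.0232). With edgeR it also missed the threshold without the low-count filter (adjusted p = 0.195), with RLE size factors (0.0785) and with library sizes alone (0.068). Without both libraries rich in Xist, Slc30a1 was 0.181 higher in conventional female than in germ-free serum on the log2 scale. Unlike Mt1 and Mt2, it was not higher in male cells (-0.07 ± 0.06, adjusted p = 0.376, edgeR), and it was called lower there when only library sizes were scaled (-0.15, adjusted p = 0.0426). An antisense model, 1700034H15Rik, shares 468 exon bases with it and held 784 counts over the 13 libraries against 35110 for Slc30a1.

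Mt1, Mt2 and Slc30a1 were the genes called lower in male serum, Slc30a1 with a call that was lost in the fits named above. Their promoters are shown because MTF1 is known to act through metal response elements. A part of MTF1 in these falls was not tested. The 250 bases before each RefSeq start (GRCm38.p6) are given 5′ to 3′ on the strand of the gene, at chr8:94178839-94179088 (+) for Mt1, chr8:94172368-94172617 (+) for Mt2 and chr1:191906531-191906780 (+) for Slc30a1. Capitals mark the core of the metal response element, TGCACNC or TGCGCNC, on either strand.
Mt1: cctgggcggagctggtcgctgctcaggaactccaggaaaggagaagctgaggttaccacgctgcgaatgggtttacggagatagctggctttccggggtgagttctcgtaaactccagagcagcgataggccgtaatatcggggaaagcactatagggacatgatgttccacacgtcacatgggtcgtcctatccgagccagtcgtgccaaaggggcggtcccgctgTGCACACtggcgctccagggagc
Mt2: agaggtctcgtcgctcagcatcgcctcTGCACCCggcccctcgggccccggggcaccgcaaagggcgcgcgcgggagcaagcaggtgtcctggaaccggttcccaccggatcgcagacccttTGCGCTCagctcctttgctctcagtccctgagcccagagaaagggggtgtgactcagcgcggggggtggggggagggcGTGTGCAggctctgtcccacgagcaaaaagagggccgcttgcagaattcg
Slc30a1: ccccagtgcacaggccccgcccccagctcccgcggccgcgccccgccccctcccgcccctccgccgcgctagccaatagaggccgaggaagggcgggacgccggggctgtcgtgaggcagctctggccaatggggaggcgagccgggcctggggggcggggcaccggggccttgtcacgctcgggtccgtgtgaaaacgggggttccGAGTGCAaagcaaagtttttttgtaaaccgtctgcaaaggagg

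The windows held 1 core in Mt1, 3 in Mt2 and 1 in Slc30a1. The core nearest to the start began at base -23 in Mt1, -50 in Mt2 and -43 in Slc30a1, counted back from the start site. At least 1 core occurred in 21.4% of 32851 promoter windows of this length and at least 3 in 1.26%. The start of Mt1 is annotated at several places: 2 other transcripts in GENCODE M21 begin 122 and 152 bases downstream of the RefSeq start, so that sequence just before those starts lies outside this window. For Mt2, both GENCODE transcripts begin downstream of the RefSeq start, by 46 and 242 bases, and the positions given above would lie that much farther from those starts. Sequence just before the Mt2 starts of GENCODE also lies outside this window. The numbers of cores in Mt1 and Mt2 thus depend on the start chosen. A match is a description of letters and no evidence of binding in these cells.

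Of the 9 genes 7 had an entry in the promoter table, and Slc39a4 and Slc39a14 had none. Slc30a10 had 3 matches, 2 of them overlapping on opposite strands. Slc30a3 and Slc39a8, with 2 annotated starts each, had 1 match before one of the starts, and the Mtf1 window had none.

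**Figure D3:**
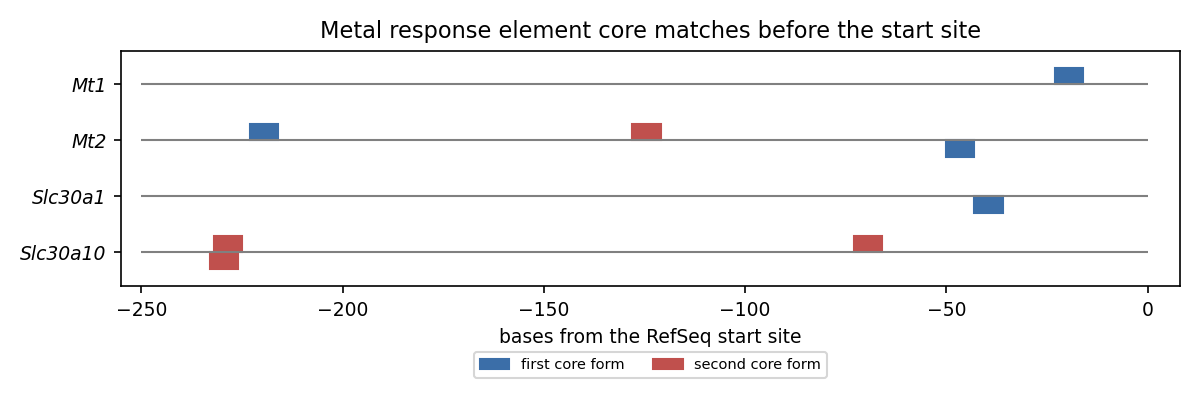
Position of metal response element cores in the 250 bases before the RefSeq start (x axis, bases from the start) of 4 genes (y axis); boxes above the line are on the strand of the gene, boxes below it on the other. Mt2 and Slc30a10 carry 3 matches each and Mt1 and Slc30a1 carry 1.

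Slc30a3 encodes ZnT3, a vesicular zinc carrier best known from synaptic vesicles (chromosome 5, 31086106 to 31108237, minus strand). It was scarce in these cells but had the largest changes of the set. In conventional female serum it had 26 and 23 counts, or 0.537 and 0.513 CPM. In germ-free serum it had 120 and 79 counts, or 2.88 and 2.20 CPM, and in conventional male serum 91, 61 and 83 counts, or 2.44, 1.70 and 2.10 CPM. With growth hormone it had 48, 65 and 54 counts, or 1.02, 1.54 and 1.10 CPM. Male cells held 176, 209 and 170 counts, or 5.41, 5.74 and 4.90 CPM.

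Conventional female serum gave the lowest Slc30a3 levels of all 13 libraries and male cells the highest. The mean rose from 0.525 ± 0.0166 CPM (SD, n = 2) in conventional female to 2.54 ± 0.482 CPM (SD, n = 2) in germ-free serum, a log2 change of 2.27 ± 0.27 (adjusted p = 0.000221, edgeR). In male serum it was 2.08 ± 0.371 CPM (SD, n = 3), a change of 1.98 ± 0.26 (adjusted p = 0.000218, edgeR). Without both libraries rich in Xist the changes were 2.30 and 2.01 (adjusted p = 0.00323 and 0.00305, edgeR). Slc30a3 did not differ between germ-free female and conventional male serum beyond the test (0.29 ± 0.21, adjusted p = 0.686, edgeR), with overlapping libraries.

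In male cells the mean of Slc30a3 was 5.35 ± 0.423 CPM (SD, n = 3), higher than in female cells of the same serum by 1.36 ± 0.19 on the log2 scale (adjusted p = 2.9e-05, edgeR). Growth hormone took it from 2.54 to 1.22 ± 0.284 CPM (SD, n = 3), a change of -1.07 ± 0.22 with no overlap between libraries (adjusted p = 0.0347, edgeR). This call was lost without f_pHep_f_GF_serum replicate 2 (-0.86, adjusted p = 0.42) or replicate 3 (-1.25, adjusted p = 0.0841), and without f_pHep_f_GF_serum_GH replicate 1 (-0.96, adjusted p = 0.176) or replicate 3 (adjusted p = 0.168). It was also lost without both libraries rich in Xist (-0.96, adjusted p = 0.156) and in a fit of only these groups (adjusted p = 0.0755). Conventional female serum lay below the level with growth hormone, at a log2 difference of -1.203 ± 0.267 (adjusted p = 0.0228, edgeR), a call that was lost without both libraries rich in Xist (-1.35, adjusted p = 0.105). In the order of its levels, male cells differed from germ-free serum (adjusted p = 0.001, edgeR), whereas germ-free serum did not differ from conventional male serum (adjusted p = 0.686), nor conventional male serum from growth hormone (adjusted p = 0.0519).

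Slc30a10 is a carrier of the same family that exports manganese (chromosome 1, 185454848 to 185468762). It held 16 to 53 counts per library, or 0.446 to 1.26 CPM. Its highest mean was that of male cells (1.07 ± 0.216 CPM, SD, n = 3) and its lowest that of germ-free serum (0.511 ± 0.0924 CPM, SD, n = 2). Conventional female serum gave 0.785 and 1.18 CPM against 0.576 and 0.446 CPM in germ-free serum, a change of -0.93 ± 0.36 that did not pass (adjusted p = 0.14, edgeR). None of the other 4 comparisons was called for Slc30a10, and standard errors of 0.29 to 0.34 there limit what could be detected at this depth. A model on the opposite strand, Gm2061, shares 533 exon bases with Slc30a10 and held 22 counts over the 13 libraries, against 418 for Slc30a10.

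**Figure D4:**
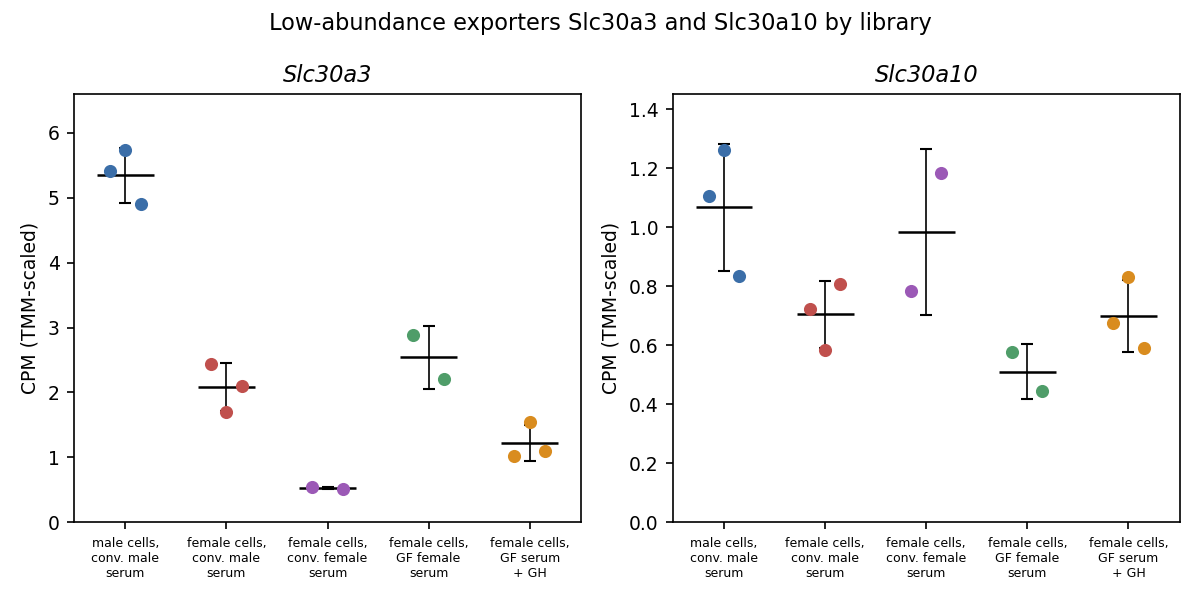
CPM with TMM-scaled library sizes (y axis, from 0) of Slc30a3 and Slc30a10 in the 5 groups (x axis); points are libraries, bars the mean and SD. Slc30a3 runs from 0.513 CPM in conventional female serum to 5.74 CPM in male cells, and Slc30a10 from 0.446 to 1.26 CPM.

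Slc39a14 encodes ZIP14, a liver importer of zinc, iron and manganese (chromosome 14, 70303469 to 70351425). It was the most counted of the importers. Levels were 565 and 515 CPM in conventional female serum and 508 and 467 CPM in germ-free serum. In conventional male serum they were 431, 459 and 475 CPM, and with growth hormone 611, 535 and 540 CPM. Male cells held 356, 393 and 369 CPM, below every female library.

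The difference of Slc39a14 between male and female cells was -0.29 ± 0.07 on the log2 scale (adjusted p = 0.00338, edgeR), the opposite direction to Mt1, Mt2 and Slc30a3. In male against conventional female serum it changed by -0.25 ± 0.08, just short of the threshold (adjusted p = 0.0539, edgeR). It was called with DESeq2 (adjusted p = 0.0191), without the low-count filter (0.00955) and with library sizes alone (0.0331). With RLE size factors it was not called (-0.243, adjusted p = 0.057, edgeR). Without both libraries rich in Xist the change was smaller, at -0.184. With growth hormone it changed by 0.21 ± 0.08, which did not pass (adjusted p = 0.283, edgeR).

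Slc39a4 encodes ZIP4, the zinc importer best known from the intestine (chromosome 15, 76612383 to 76617384). Its levels ran from 127 to 151 CPM, the narrowest range relative to its mean of the set. Conventional female serum gave 129 and 127 CPM, germ-free serum 144 and 143 CPM and male serum 139, 149 and 138 CPM. Neither change passed, with 0.17 ± 0.07 in germ-free (adjusted p = 0.168, edgeR) and 0.15 ± 0.06 in male serum (adjusted p = 0.149, edgeR).

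Slc39a8 encodes ZIP8, a zinc and manganese importer (chromosome 3, 135825279 to 135888572). It ran from 25.9 to 33.3 CPM and was called in none of the 5 comparisons. Its changes lay between -0.09 and 0.19, with standard errors of 0.08 to 0.10.

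Mtf1 (chromosome 4, 124802104 to 124849800) had 33.6 and 38.3 CPM in conventional female serum and 41.0 and 39.5 CPM in germ-free serum. Conventional male serum gave 38.6, 35.4 and 36.2 CPM and growth hormone 36.3, 38.9 and 35.3 CPM. Male cells held 29.6, 32.2 and 31.8 CPM, below every female library. The difference between male and female cells was -0.24 ± 0.07 (adjusted p = 0.0133, edgeR), and it missed the threshold without m_pHep_m_ConvR replicate 1 (-0.19, adjusted p = 0.0832) or f_pHep_m_ConvR replicate 1 (-0.20, adjusted p = 0.0537). No serum or hormone comparison called Mtf1.

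Mtf1 shares 721 exon bases with 1110065P20Rik on the opposite strand, and the strand setting of the counting is not given, so that reads there cannot be assigned to either gene with certainty. That neighbour was higher in male cells by 0.27 ± 0.09 (adjusted p = 0.0311, edgeR), the opposite direction. Male cells thus had higher CPM of Mt1 and Mt2 and lower CPM of Mtf1 than female cells in the same serum. The Mtf1 difference lay within the quartiles of all genes tested there (-0.276 to 0.26), and its call depended on the libraries kept. A relation between these differences was not tested.

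**Figure D5:**
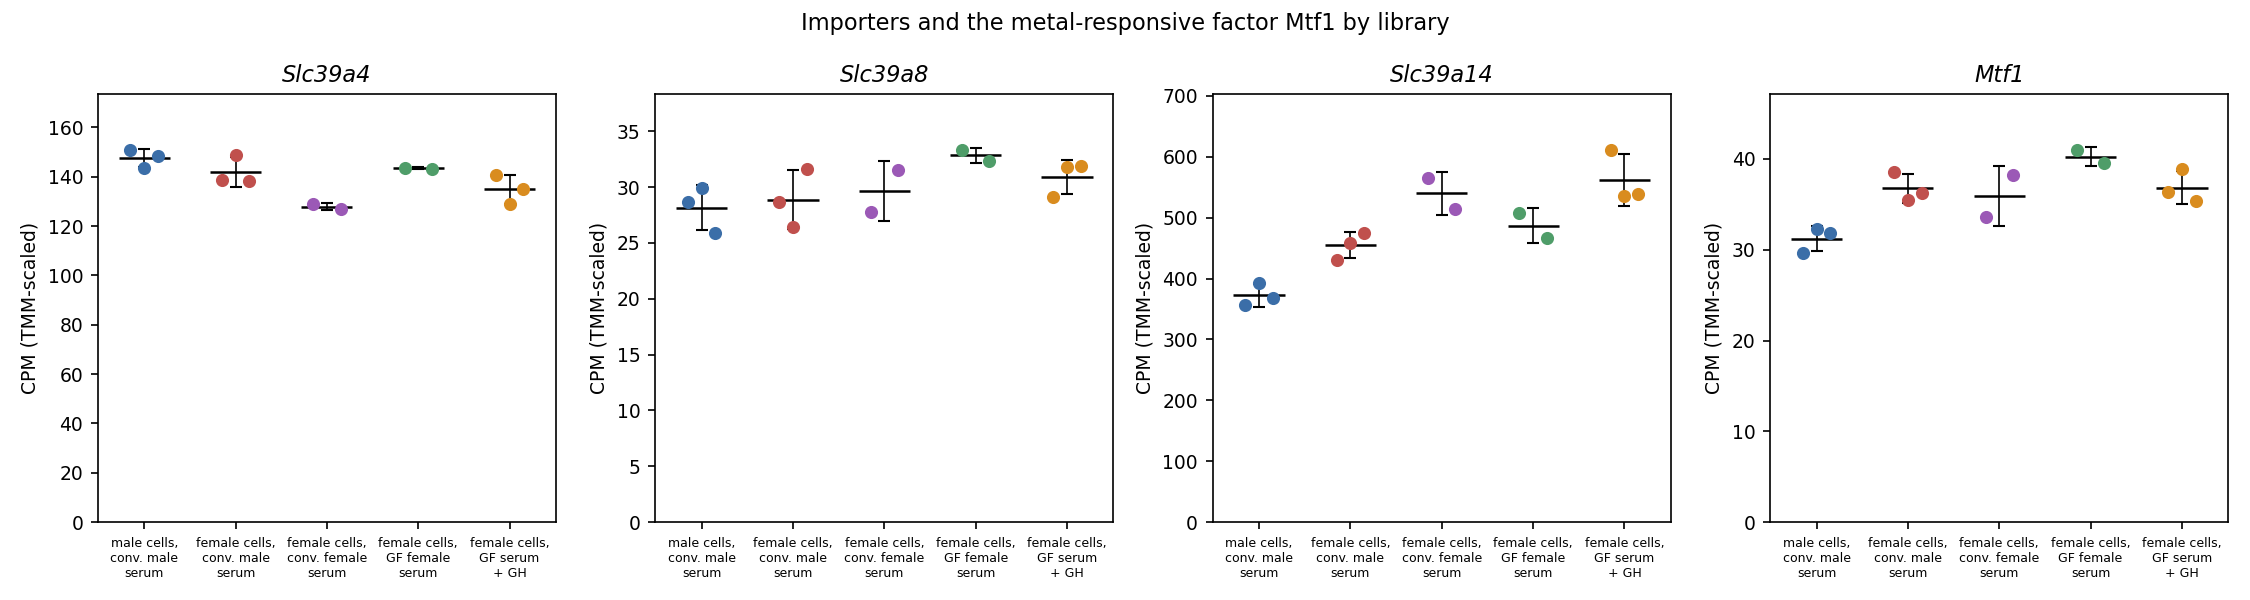
CPM with TMM-scaled library sizes (y axis, from 0) of Slc39a4, Slc39a8, Slc39a14 and Mtf1 in the 5 groups (x axis); points are libraries, bars the mean and SD. Slc39a14 and Mtf1 are lowest in male cells, at 356 to 393 and 29.6 to 32.2 CPM, and Slc39a4 and Slc39a8 vary little between groups.

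Between the sexes of the cells, several marker sums moved with these differences. Hepatocyte markers summed to 32500 to 34000 CPM in male and 15190 to 16740 CPM in female cells of the same serum. Most of that sum was Alb (5821 to 18060 CPM over the 13 libraries) and Trf (6856 to 11820 CPM). Ass1 (124 to 151 CPM) and Fah (36.4 to 51.2 CPM) varied little over the 13 libraries, and the other matched hepatocyte markers varied more. Kupffer cell and macrophage markers, mostly Cd68, summed to 148 to 167 against 78.5 to 97.9 CPM. Those of sinusoidal endothelium summed to 48.7 to 50.2 against 14.9 to 18.8 CPM. Stellate cell and fibroblast markers summed to 29.3 to 32.8 against 15.4 to 20.9 CPM. The part of cell composition in the differences of Mt1, Mt2, Slc30a3, Slc39a14 and Mtf1 was not tested. With library sizes alone, the calls over all genes between the sexes shifted from 3065 higher and 3314 lower to 2349 and 4643, and the median of all genes from -0.02 to -0.11. Mt1, Mt2 and Slc30a3 remained higher and Slc39a14 and Mtf1 lower in male cells under that scaling.

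Per kilobase of exon sequence, averaged over all 13 libraries, the metallothioneins exceeded every carrier. Mt2 stood at 748 and Mt1 at 611 CPM per kilobase. The Mt1 model of 1246 bases includes introns that one annotated transcript retains, which lowers its value. Slc39a14 (45.4) and Slc39a4 (45.0) ranked 5 and 6 of 31 genes for zinc carriers, metallothioneins and Mtf1, on the same scale. Their order depended on the group: Slc39a4 stood above Slc39a14 in male cells (47.5 against 35.3) and in female cells with male serum (45.7 against 43.1), and below it or level with it in the other groups. Above them stood Slc39a1 (104), a plasma membrane importer, and Slc39a7 (77.8), which releases zinc from the endoplasmic reticulum and shares its exons with an overlapping model. Slc30a1 followed at 12.6, Mtf1 at 4.03, Slc39a8 at 3.90, Slc30a3 at 0.870 and Slc30a10 at 0.137 CPM per kilobase.

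The other carriers of zinc and the remaining metallothioneins, a list of 22 genes, had 17 members with enough counts to be tested. In germ-free against conventional female serum edgeR called 0 of them (4 at an unadjusted p under 0.05) and DESeq2 called 2. In male serum 1 rose, Slc39a2, an importer of the plasma membrane, from 11.6 ± 1.83 (SD, n = 2) to 19.6 ± 4.94 CPM (SD, n = 3), a log2 change of 0.75 ± 0.16 (adjusted p = 0.00893, edgeR). Slc39a2 was also the only call of the list between germ-free female and conventional male serum, at -0.88 ± 0.17 (adjusted p = 0.0335, edgeR). It shares 151 exon bases with Mettl17, a neighbour on the same strand.

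Between male and female cells, 5 members of this list were higher and 1 was lower, 6 of 17 beside 36.7% of all genes, a share near the background. The fall was that of Slc39a2, at 3.93 ± 0.309 CPM (SD, n = 3) in male and 19.6 CPM in female cells (-2.32 ± 0.16, adjusted p = 1.4e-08, edgeR). Mt3, the metallothionein best known from brain, had 36 counts over the 3 male and 5 over the 3 female libraries (2.90 ± 0.84, adjusted p = 0.0127, edgeR). Slc30a4, a vesicular exporter, was higher by 0.43 ± 0.07 (adjusted p = 9.3e-05, edgeR), and Slc30a5 (0.33), Slc30a7 (0.30) and Slc39a6 (0.21) were the other rises. With growth hormone edgeR called 0 of the 17 (4 at an unadjusted p under 0.05) and DESeq2 called 0. The list medians ranged from -0.10 to 0.12 over the 5 comparisons.

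Genes of copper, iron and manganese transport (14 tested) held 2 falls in germ-free and 2 in male serum, beside 3.54% and 4.85% of all genes lower. Ceruloplasmin (Cp), the copper-carrying ferroxidase of plasma, fell in both, by 0.573 ± 0.149 and 0.662 ± 0.134 on the log2 scale (adjusted p = 0.0308 and 0.00583, edgeR). The others were Atp7b, the copper pump of hepatocytes, at -0.54 in germ-free serum, and Slc40a1, the iron exporter ferroportin, at -0.47 in male serum. In male cells 4 were higher, the metal importer Slc11a2 (0.76), Slc40a1 (0.64), Cp (0.56) and the transferrin receptor Tfrc (0.21), and Slc31a2 was lower (-0.32). These 5 of 14 stand beside 36.7% of all genes, a share near the background. Growth hormone was followed by 1 rise, that of Cp (0.71 ± 0.14, adjusted p = 0.0229, edgeR), beside 0.511% of all genes higher. List medians were -0.05, -0.09, -0.02 and 0.05 in these 4 comparisons.

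Targets of the stress factors NRF2 and HSF1 (13 tested) did not move as a block. In germ-free serum Gclc (-0.28) and Gclm (-0.35), the subunits of the enzyme that starts glutathione synthesis, fell, beside 3.54% of all genes lower. In male serum 5 rose and 1 fell, beside 3.95% and 4.85% of all genes, with the heat shock genes Hspa1a (1.17) and Hspa1b (0.84) and the haem oxygenase Hmox1 (0.45) in front of Dnajb1 (0.32) and Hsph1 (0.29), and Nqo1 lower (-0.39). Mt1 and Mt2 fell in the same comparison, and a link between them and these genes was not tested. In male cells 5 were higher, Nqo1 (1.14), the cystine importer Slc7a11 (0.79), Gclm (0.51), Gclc (0.46) and Srxn1 (0.37), and Osgin1 was lower (-0.85), 6 of 13 beside 36.7% of all genes. The list medians were 0.17, 0.09 and 0.12 in these 3 comparisons, and with growth hormone edgeR called 0 (3 at an unadjusted p under 0.05) and DESeq2 called 0.

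Glucocorticoid targets (10 tested) showed 1 rise and 4 falls in germ-free serum and the same counts in male serum, with medians of -0.37 and -0.24. Beside them, 2.86% and 3.95% of all genes were higher and 3.54% and 4.85% lower. The rises were Tdo2 (2.15) in germ-free and Sgk1 (0.80) in male serum, and the falls were led in both by Tat (-1.35 and -1.11) and Zbtb16 (-0.83 and -0.65), followed by Pck1 (-0.65 and -0.49). The remaining fall was Fkbp5 (-0.49) in germ-free and Tsc22d3 (-0.31) in male serum. Male cells had 2 higher, Tat (2.76) and Pck1 (2.30), and 2 lower, Tsc22d3 (-0.54) and Sgk1 (-0.32), with a median of 0.07. These 4 of 10 stand beside 36.7% of all genes, a share near the background. With growth hormone edgeR called 0 of them (4 at an unadjusted p under 0.05) and DESeq2 called 1.

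Of 16 genes of the interleukin 6 and STAT3 response, 9 fell in germ-free and 8 in male serum, beside 3.54% and 4.85% of all genes, with medians of -0.68 and -0.42. Hamp, the iron hormone hepcidin, and Fga, a fibrinogen chain, led both, at -1.61 and -1.44 in germ-free and -2.01 and -2.05 in male serum. In male cells 14 were higher, beside 17.6% of all genes, with a median of 1.57. With growth hormone 3 were higher, Steap4 (1.51), Crp (0.79) and Socs3 (0.69), beside 0.511% of all genes, with a median of 0.44. Mt1 and Mt2 were called in the direction of the called genes of this list in male serum and in male cells. They were not called in germ-free serum (-0.28 and -0.36, adjusted p = 0.127 and 0.0592, edgeR). With growth hormone they were not called either (0.05 and 0.11, adjusted p = 0.853 and 0.689, edgeR). Slc39a14 was called in the opposite direction in male cells, and its fall in male serum missed the threshold (-0.25, adjusted p = 0.0539, edgeR). Glucocorticoid targets also held 4 falls and 1 rise in male serum. The part of either response in the changes of Mt1, Mt2 and Slc39a14 was not tested. Between germ-free female and conventional male serum edgeR called 0 members of the copper, stress, glucocorticoid and interleukin 6 lists (1, 7, 5 and 8 at an unadjusted p under 0.05), and DESeq2 called 0, 2, 2 and 1.

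The genes most like Mt1 across the 13 libraries were Slc6a13, Id1, Ces2c, Cdo1 and Slc35d2, with Pearson r from 0.94 to 0.95 on log2 CPM among 11592 genes. Mt2 had r = 0.97 with Mt1. Slc6a13, at rank 1, averaged 22.1 CPM in male cells, 20.8 in conventional female serum and 18.4 in germ-free serum. It averaged 18.8 with growth hormone and 15.3 in female cells with male serum. Cdo1, a cysteine dioxygenase at rank 4, averaged 890 CPM in male cells, 828 in conventional female serum and 446 in germ-free serum. It averaged 626 with growth hormone and 362 in female cells with male serum. A link between Cdo1 and the metallothioneins was not tested. The genes most like Slc30a3 were Emp1, Pea15a, Cited2, Sdcbp2 and Cdkn2b, with r from 0.95 to 0.97. Emp1, an epithelial membrane protein, averaged 78.6 CPM in male cells, 56.0 in germ-free serum, 49.4 in male serum, 40.5 with growth hormone and 24.6 in conventional female serum. These r are descriptions over libraries that share groups, and the highest among many genes.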

How the data were processed

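RNA-seq of 13 libraries in 5 groups was used. Per the file headers and values, the table that the authors deposited holds unnormalised exon counts, 1 row per gene. The authors used STAR 2.4.0i and mm10, per the submitters' processing notes. What counted the reads, with which annotation, strand setting and filters, is not given in the sources used here. Libraries were stranded total RNA after ribosomal depletion, read with 100 cycles per mate, per the labels' protocols. The table has 15 columns for 15 samples. A pair of them share 1 header name and cannot be assigned, so 2 columns of values were not used and the model was fitted to 13.

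Groups follow the sample titles. Counts were filtered with filterByExpr (minimum count 10), scaled by TMM and fitted with edgeR 4.0.16 in 1 model of 5 groups without covariates (8 residual degrees of freedom, biological coefficient of variation 9.02%). Contrasts were tested two-sided with the quasi-likelihood F test and Benjamini-Hochberg adjustment over 17405 genes. CPM values use the TMM-scaled total of all counts. The standard error is the log2 fold change over the root of F. DESeq2 1.42.0 was an alternative, as were other scaling, no filter, fits of only the groups compared, a replicate block and left-out libraries. The fit was tested on simulated data. Chi-square over its degrees of freedom between replicates was 5.46 to 53.4, so the libraries of a group were not copies of each other.

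The 9 genes, the lists, the tests and the rule for named genes were chosen with earlier results of these data known. The rule named all 9, the 5 genes most correlated with Mt1 and with Slc30a3 (mean count of at least 50, prior count 2, predicted models passed over), and up to 3 called members per list and comparison. Further called list members were named, after their values were seen, where 5 or fewer were called in a direction. Gene coordinates and exon lengths are from GENCODE M21 (mm10), in which 36308 of 38087 identifiers matched, and promoters from RefSeq (GRCm38.p6).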

Additional observations from a re-analysis of the deposited data

How the results depend on the processing

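Of 540 alternative values for single genes, 507 kept their direction and their side of the threshold, 12 lost a call, 10 gained one and 11 changed sign, none of the last being a called change. The numbers of called genes among the 9 were the following. In germ-free against conventional female serum the count of 1 became 2 with library sizes alone, and 3 with DESeq2 or with no low-count filter, and it stayed at 1 without each library. In male serum it was 3 to 4 without each library, and between the sexes of the cells 4 to 5. With growth hormone the count of 1 became 0 when both Xist-rich libraries were left out and 0 when the other groups were, and ranged from 0 to 1 without each library. Of 2 comparisons of neighbouring levels tried without both Xist-rich libraries, an alternative chosen after seeing the data, Slc30a3 in conventional female serum against growth hormone lost its call (-1.347, adjusted p = 0.105) and Mt2 in male cells against growth hormone kept its own (0.286). A library left alone in its group was assumed to vary like the other groups.

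With the replicate number as a block, the count was 2 in germ-free serum (Mt2 gained a call, adjusted p = 0.0342) and 0 with growth hormone (Slc30a3, -1.07, adjusted p = 0.0857), and it changed no other call. The design does not state that numbers pair samples, and deviations of same-numbered libraries correlated weakly, from -0.02 to 0.13. As a hint from the data, between the sexes 2 of 3 male and 3 of 3 female libraries correlated best with their own number.

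Changes of sign occurred for Slc39a8 in male serum, with a range of -0.13 to 0.056 without 1 library (0.025 without f_pHep_m_ConvR replicate 2 and 0.056 without f_pHep_f_ConvR replicate 3). Between the sexes its range was -0.098 to 0.032 (0.028 without m_pHep_m_ConvR replicate 3 and 0.032 without f_pHep_m_ConvR replicate 3). Mtf1 in male serum gave -0.063 without both libraries rich in Xist, -0.063 without f_pHep_f_ConvR replicate 2 and -0.002 without f_pHep_m_ConvR replicate 1. Slc39a4 gave -0.031 between the sexes with library sizes alone. In germ-free against male serum it ranged from -0.004 to 0.05 (-0.002 without f_pHep_m_ConvR replicate 1 and -0.004 without replicate 3). Mt1 with growth hormone ranged from -0.008 (without f_pHep_f_GF_serum_GH replicate 3) to 0.123. The cause was not tested.

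Counts over all genes moved more. In germ-free against conventional female serum 1115 genes were called, 274 to 1225 without 1 library, 367 without both libraries rich in Xist, 611 with the other groups left out and 1731 without the filter. In male serum the 1532 calls became 468 to 2064, with growth hormone 102 became 33 to 796, and in germ-free against male serum 78 became 2 to 622. Depth limits Slc30a10 and Slc30a3 most, at 16 to 53 and 23 to 209 counts per library.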
